A study of Mus musculus with 6 samples.

Results

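The TCF/LEF transcription factors Lef1, Tcf7, Tcf7l1 and Tcf7l2, their partner beta-catenin (gene Ctnnb1) and the zinc finger factor Sp5 were followed in mouse embryonic stem cells (mESCs). They were taken from the count table by gene symbol and make up 6 of its 27179 genes. All 6 passed the filter on low counts, which left 12345 genes for testing. The cells carried Tfe3-ERT2, a fusion of the transcription factor Tfe3 with an estrogen receptor domain that moves into the nucleus when 4-hydroxytamoxifen (4OHT) binds it. They grew on gelatin in medium with serum and LIF, a cytokine that holds back differentiation. The 3 libraries of the 4OHT group came from cells given 4OHT at 1 µg/mL for 48 h, and the 3 of the EtOH group from cells given the ethanol vehicle. Both groups carried the fusion, so an effect of 4OHT itself and an effect of nuclear Tfe3 cannot be told apart here. The labels do not say what drives the fusion, whether the line is a single clone, or whether the libraries of a group are separate cultures. The p-values therefore measure only the spread between these libraries, which may be technical.

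In the canonical WNT pathway, a WNT ligand binds Frizzled and LRP receptors and stops a destruction complex from marking beta-catenin for degradation. Beta-catenin then enters the nucleus, where it binds TCF/LEF factors that sit on DNA through a high mobility group (HMG) box. Without beta-catenin, TCF/LEF factors recruit Groucho/TLE proteins and act as repressors. In mESCs, Tcf7l1 (also called Tcf3) is known mainly as a repressor of pluripotency genes, while Tcf7 and Lef1 are known mainly as activators. Sp5 is a direct target of the pathway and in turn acts on other targets of it.

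The family members share the DNA-binding part and differ around it. A stretch of 120 coding bases from the region of the HMG box is given for the 4 genes to show how alike their transcripts are there. It was taken as the ungapped stretch of that length with the most bases identical in all 4 aligned coding sequences. The limits of the HMG box were not used, so the stretch may reach beyond it. Capitals mark bases that differ from Lef1. The sequences run 5′ to 3′ and come from GENCODE vM21 transcripts of GRCm38.
Lef1: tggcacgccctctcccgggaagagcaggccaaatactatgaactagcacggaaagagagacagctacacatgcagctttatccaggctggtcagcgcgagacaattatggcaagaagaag
Tcf7: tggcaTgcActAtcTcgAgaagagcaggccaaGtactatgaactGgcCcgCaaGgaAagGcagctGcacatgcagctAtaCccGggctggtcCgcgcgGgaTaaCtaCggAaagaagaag
Tcf7l1: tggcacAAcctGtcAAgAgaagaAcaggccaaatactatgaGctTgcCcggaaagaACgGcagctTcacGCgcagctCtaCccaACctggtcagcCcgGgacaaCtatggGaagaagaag
Tcf7l2: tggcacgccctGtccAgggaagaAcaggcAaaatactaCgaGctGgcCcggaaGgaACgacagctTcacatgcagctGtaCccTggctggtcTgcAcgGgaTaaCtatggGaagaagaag
The stretch covers coding bases 1003 to 1122 of Lef1, 676 to 795 of Tcf7, 1183 to 1302 of Tcf7l1 and 1093 to 1212 of Tcf7l2. In it, 85 of the 120 bases were the same in all 4 genes, and the other 3 genes matched Lef1 at between 80.0% (Tcf7l1) and 82.5% (Tcf7l2) of bases. Anywhere in the transcripts, the longest run of identical bases between any pair in the family was 23 bases, between Tcf7l1 and either Lef1 or Tcf7l2. Between Ctnnb1 and its close relative Jup the longest run was 20 bases, and between Sp5 and Sp8 it was 26. The read length of the libraries is not given in the sources used here.

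Lef1 and Sp5 were the members with the largest falls, and the 250 bases upstream of their RefSeq starts (GRCm38.p6) are given for that reason. They were searched on both strands for the TCF/LEF motif letters ATCAAAG and TTCAAAG and for the E-box letters CACGTG and TCACGTG, the kind of site MiT/TFE factors such as Tfe3 bind. Capitals mark matches. The upstream window of Sp5 lies at chr2:70474673-70474922 on the plus strand. The window of the outermost Lef1 start lies at chr3:131110047-131110296, and that of a start further inside the gene at chr3:131156044-131156293, both on the plus strand. Lef1 has 4 such windows, and the inner one is given because it was the only one of them with a match.
Sp5: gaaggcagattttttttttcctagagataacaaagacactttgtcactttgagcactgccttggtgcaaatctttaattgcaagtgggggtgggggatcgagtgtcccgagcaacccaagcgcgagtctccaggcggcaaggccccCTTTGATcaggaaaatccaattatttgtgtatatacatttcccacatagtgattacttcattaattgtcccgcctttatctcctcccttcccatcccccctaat
Lef1 outer start: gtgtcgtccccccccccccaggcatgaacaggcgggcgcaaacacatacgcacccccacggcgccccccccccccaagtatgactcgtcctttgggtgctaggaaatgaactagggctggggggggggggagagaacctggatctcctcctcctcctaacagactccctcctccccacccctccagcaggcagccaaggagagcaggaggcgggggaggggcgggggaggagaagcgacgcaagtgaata
Lef1 inner start: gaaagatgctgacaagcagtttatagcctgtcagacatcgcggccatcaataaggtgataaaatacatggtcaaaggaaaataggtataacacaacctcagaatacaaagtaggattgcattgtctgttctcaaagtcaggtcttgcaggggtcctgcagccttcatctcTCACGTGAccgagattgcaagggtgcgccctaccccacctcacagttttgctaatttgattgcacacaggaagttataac
The Sp5 window held the letters ATCAAAG once, read as CTTTGAT on the strand shown, from base -104 to base -98 relative to the start. Of all 32851 upstream windows of the same length, 3.21% held ATCAAAG and 4.46% held TTCAAAG. The inner Lef1 window held CACGTG from base -79 to base -74, flanked so that TCACGTG read on both strands (the E-box match lies inside both). CACGTG was in 6.02% and TCACGTG in 3.13% of all windows. Counted by gene over all its windows, the shares were 6.86% and 3.58%. These shares do not allow for the window being picked for its match among all those searched. None of these letters were in the outer Lef1 window or in any other of the 12 windows of the members, which says only that those 250 bases do not contain them. A match is a description of the letters and does not show that a factor binds there.

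Total counts were between 4092877 and 4984364 in the EtOH libraries and between 4648374 and 6427880 in the 4OHT libraries. Levels are counts scaled to a common library size (CPM), scaled with TMM factors, and 3 counts in 1 library were worth between 0.467 and 0.736 CPM (counting error only). The first principal component of the 6 libraries held 66.0% of the variance. In the edgeR quasi-likelihood test, adjusted by Benjamini-Hochberg over every tested gene, 42.0% of tested genes passed the adjusted p threshold of 0.05, with 21.4% higher and 20.6% lower in 4OHT. As a check of the labels, 10 of 10 genes known as targets of MiT/TFE factors were higher in 4OHT, among them the GTPase gene Rragc (48.6 ± 3.71 to 117 ± 3.16 CPM, SD, n = 3 each) and the autophagy receptor Sqstm1 (179 ± 10.3 to 407 ± 1.64 CPM). That list was chosen with earlier results of these data known, so it is not an independent check. Of 10 mESC markers, all were tested, 5 were higher, 3 lower and 2 not called, and their summed level was between 5215 and 5259 CPM in EtOH and between 6215 and 6239 CPM in 4OHT. The rise of the sum lay in Tfcp2l1 (667 to 1505 CPM) and Esrrb (564 to 879 CPM). The other 8 summed to between 3965 and 4061 CPM in EtOH and between 3839 and 3850 CPM in 4OHT. Of these, Nanog, Zfp42 and Klf4 were called higher and Pou5f1, Utf1 and Lin28a lower. In bulk RNA, fewer cells of a type and less RNA per cell cannot be told apart.

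All 6 members passed the test: Lef1, Sp5, Tcf7 and Tcf7l1 were lower in 4OHT, and Ctnnb1 and Tcf7l2 were higher. The groups of 3 libraries did not overlap in CPM for any of the 6, against 48.8% of all tested genes. Lef1 and Sp5 fell severalfold, and the other members moved by between 1.15-fold and 1.5-fold. Since 42.0% of tested genes were called, a call alone did not set the smaller changes apart from the rest of the transcriptome.

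**Figure D1:**
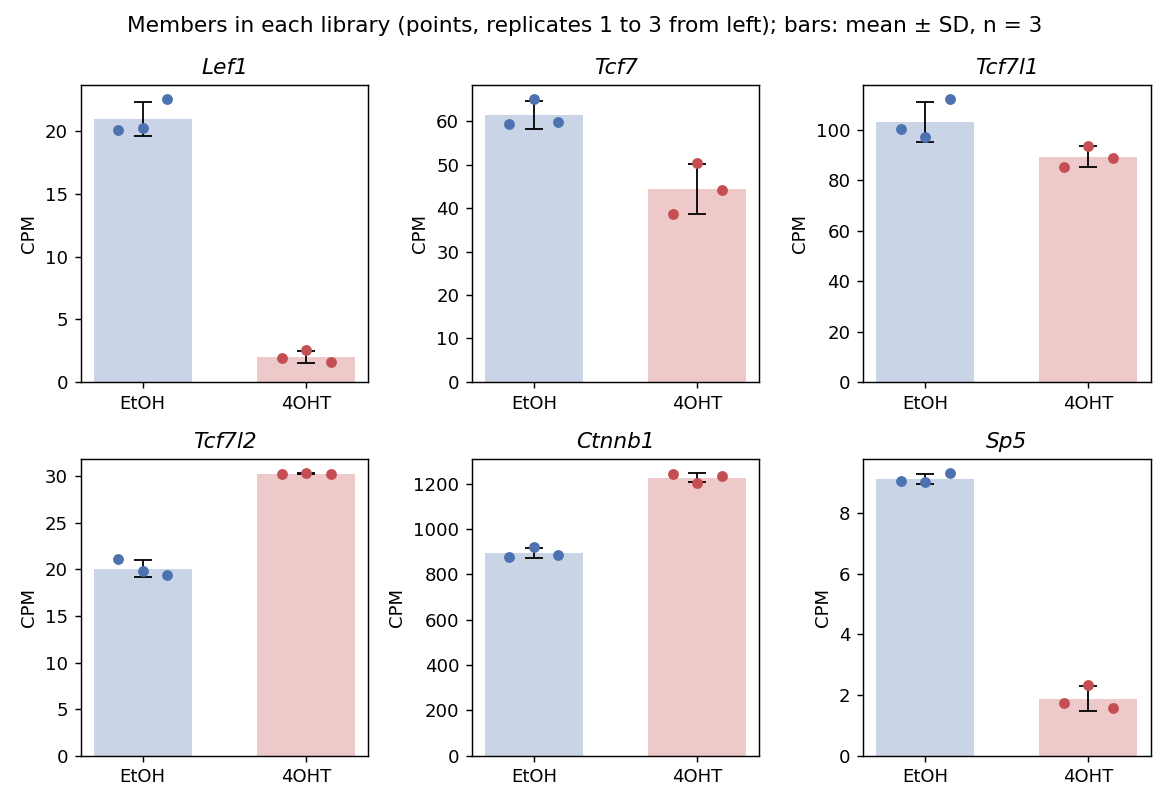
CPM of each member (y axis, linear and from 0, own scale per panel) in the EtOH (blue) and 4OHT (red) libraries, with replicates 1 to 3 from left; bars are means and error bars SDs (n = 3). In every panel the 3 points of one group lie outside the range of the other, and Lef1 and Sp5 in 4OHT are close to 2 CPM.

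Lef1 (Entrez Gene 16842) spans 131110297 to 131224357 on chromosome 3 of GRCm38. It had 100, 90 and 92 counts in the EtOH libraries, or 20.1, 20.3 and 22.6 CPM. In the 4OHT libraries it had 9, 14 and 10 counts, or 1.95, 2.52 and 1.56 CPM. Every 4OHT library lay far below every EtOH library, yet above the level of 3 counts. The means were 21.0 ± 1.38 CPM in EtOH and 2.01 ± 0.483 CPM in 4OHT (SD, n = 3 each), 10.5-fold lower. The log2 fold change of -3.40 (SE 0.22, edgeR adjusted p = 5.1e-36) was the lowest among the tested genes, with 0 of 12345 below it. By level per kilobase of gene length, Lef1 moved from the 42.7 percentile of tested genes in EtOH to the 3.76 percentile in 4OHT. Its 33 counts over the 3 4OHT libraries limit how precisely the fold is known, and over all alternatives the log2 fold change was between -3.60 and -3.21. An antisense gene model on the opposite strand, Gm43352, shares 13.7% of the exon bases of Lef1, and the strand setting of the counting is not given in the sources used here.

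Sp5 (Entrez Gene 64406; chromosome 2, 70474923 to 70477726) also fell, from a lower level. It had 45, 40 and 38 counts in EtOH (9.03, 9.01 and 9.32 CPM). In 4OHT it had 8, 13 and 10 counts (1.73, 2.34 and 1.56 CPM). The EtOH libraries lay within a narrow band and the 4OHT libraries all lay well below it. The means were 9.12 ± 0.171 and 1.88 ± 0.410 CPM, 4.88-fold lower (edgeR adjusted p = 5.4e-13, log2 fold change -2.29, SE 0.28). For Sp5 the EtOH SD was smaller than counting error alone would give at these counts, so it understates the uncertainty of that mean. Only 9 tested genes had a lower log2 fold change, Lef1 among them. Sp5 shares no exon bases with another gene model, and its log2 fold change was between -2.48 and -2.14 over all alternatives.

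Tcf7 (Tcf1; Entrez Gene 21414; chromosome 11, 52246527 to 52283383) fell by much less than Lef1. It stood at 59.4, 65.1 and 59.8 CPM in EtOH (296, 289 and 244 counts). In 4OHT it stood at 38.7, 50.3 and 44.2 CPM (179, 280 and 284 counts). The 4OHT libraries were spread more widely than the EtOH libraries, and the highest of them stayed below the lowest EtOH library. The means of 61.5 ± 3.17 and 44.4 ± 5.81 CPM differed 1.37-fold (edgeR adjusted p = 5.5e-07, log2 fold change -0.46, SE 0.08). Of all tested genes, 20.2% had a larger absolute log2 fold change.

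Tcf7l1 (Entrez Gene 21415; chromosome 6, 72626371 to 72789045) changed least. Its level was 101, 97.1 and 112 CPM in EtOH (501, 431 and 458 counts). In 4OHT it was 85.5, 93.8 and 89.1 CPM (395, 522 and 572 counts). The highest 4OHT library lay just under the lowest EtOH library. The means of 103 ± 7.97 and 89.5 ± 4.21 CPM differed 1.15-fold (log2 fold change -0.20, SE 0.06, edgeR adjusted p = 0.0047), and 51.3% of tested genes had a larger absolute log2 fold change. The call rested on EtOH replicate 3, the highest library: without it the log2 fold change was -0.14 (edgeR adjusted p = 0.10). It was also lost when every library was thinned to the smallest total (-0.16, edgeR adjusted p = 0.052). Tcf7l1 shares 4.56% of its exon bases with the antisense model Gm15401.

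Tcf7l2 (Tcf4; Entrez Gene 21416; chromosome 19, 55741797 to 55933659) was the only family member that rose. It stood at 21.1, 19.8 and 19.4 CPM in EtOH (105, 88 and 79 counts). In 4OHT it stood at 30.3, 30.4 and 30.2 CPM (140, 169 and 194 counts). The 3 4OHT libraries were nearly level and all above the EtOH libraries. The means of 20.1 ± 0.884 and 30.3 ± 0.0881 CPM differed 1.5-fold (edgeR adjusted p = 8.0e-06, log2 fold change 0.59, SE 0.12). The 4OHT SD was smaller than counting error alone would give at these counts, so it understates the uncertainty of that mean. Of tested genes, 13.6% had a larger absolute log2 fold change.

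Ctnnb1 (Entrez Gene 12387; chromosome 9, 120933400 to 120960507), which encodes beta-catenin, a partner of TCF/LEF factors and also a part of cell junctions, rose. It stood at 879, 919.6 and 885 CPM in EtOH (4377, 4081 and 3610 counts). In 4OHT it stood at 1244, 1204 and 1235 CPM (5749, 6697 and 7933 counts). The gap between the groups was many times the spread within either. The means of 895 ± 21.9 and 1228 ± 21.0 CPM differed 1.37-fold (edgeR adjusted p = 7.4e-34, log2 fold change 0.46, SE 0.03). The adjusted p was far smaller than that of Tcf7l2 although the fold was smaller, with 12068 and 20379 counts in the 2 groups behind Ctnnb1 against 272 and 503 behind Tcf7l2. Ulk4 on the opposite strand and Mir7090 on the same strand share 15.1% of the exon bases of Ctnnb1. Ulk4 itself had at most 25 counts in any library.

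**Figure D2:**
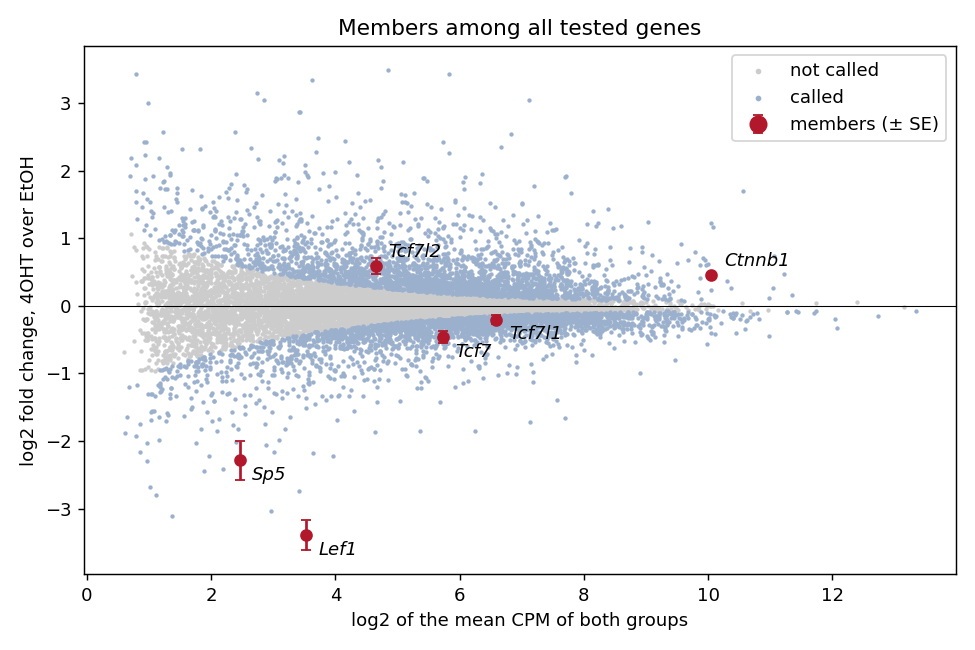
Log2 fold change, 4OHT over EtOH (y axis), against log2 of the mean CPM (x axis) for the 12345 tested genes, called genes in light blue and others in grey; members in red with ± SE. Lef1 (-3.40) lies at the lower edge of all genes and Sp5 (-2.29) near it, while the other 4 members lie within the range of many called genes of like level.

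The order of the members was compared by CPM per kilobase of the gene length in the count table. In EtOH it ran from Ctnnb1 (247 ± 6.05 CPM per kb) through Tcf7l1 (37.1 ± 2.86), Tcf7 (27.5 ± 1.42) and Lef1 (8.53 ± 0.561) to Tcf7l2 (4.41 ± 0.194) and Sp5 (4.35 ± 0.0815). Tcf7l2 and Sp5 overlapped between libraries, and every other pair of neighbours in this order did not. In 4OHT the order was Ctnnb1 (339 ± 5.79 CPM per kb), Tcf7l1 (32.1 ± 1.51), Tcf7 (19.9 ± 2.60), Tcf7l2 (6.65 ± 0.0193), Sp5 (0.894 ± 0.195) and Lef1 (0.816 ± 0.196). There, Sp5 and Lef1 overlapped and the other neighbours did not. By this measure Lef1 went from the fourth place to the last, and Tcf7l2 took the fourth place. The EtOH order of Lef1 and Tcf7l2 rests on the gene lengths used, 2460 bases for Lef1 and 4553 for Tcf7l2. In CPM without length they overlapped in EtOH, at 20.1, 20.3 and 22.6 for Lef1 and 21.1, 19.8 and 19.4 for Tcf7l2. The level of Ctnnb1 was 6.65 times that of Tcf7l1 in EtOH and 10.5 times in 4OHT.

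Within the family, the makeup of TCF/LEF transcripts was measured as each gene's share of the summed CPM per kb of the 4 genes. Lef1 made up 10.8%, 10.8% and 11.4% of the sum in the EtOH libraries and 1.43%, 1.60% and 1.07% in the 4OHT libraries. Tcf7l2 made up 6.13%, 5.69% and 5.29% in EtOH and 12.0%, 10.4% and 11.2% in 4OHT. Neither Lef1 nor Tcf7l2 overlapped between groups. By this measure they changed places as the smallest share, but in CPM without length their levels overlapped in EtOH. Tcf7l1 held 47.9%, 45.6% and 50.1% in EtOH and 55.4%, 52.8% and 54.2% in 4OHT, so its share was higher in every 4OHT library although its level was lower. Tcf7 held between 33.2% and 38.0% in EtOH and between 31.2% and 35.2% in 4OHT, and its groups overlapped. The differences in mean share were -9.62 percentage points for Lef1, 5.53 for Tcf7l2 and 6.26 for Tcf7l1. Each had p = 0.1 in an exact two-sided permutation test (0.13 after Benjamini-Hochberg adjustment over the 4 shares), the smallest that 3 against 3 libraries allow, so none could reach 0.05. For Tcf7 the difference was -2.17 percentage points (exact permutation p = 0.5). It was -0.90 without EtOH replicate 2, -1.12 without 4OHT replicate 1 and -3.29 without EtOH replicate 3. The sum itself was 77.5 ± 2.65 CPM per kb in EtOH and 59.5 ± 4.24 in 4OHT (exact permutation p = 0.1). The shares depend on the gene lengths used: on CPM without length the differences were 3.71 for Tcf7l1 and 8.50 for Tcf7l2.

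**Figure D3:**
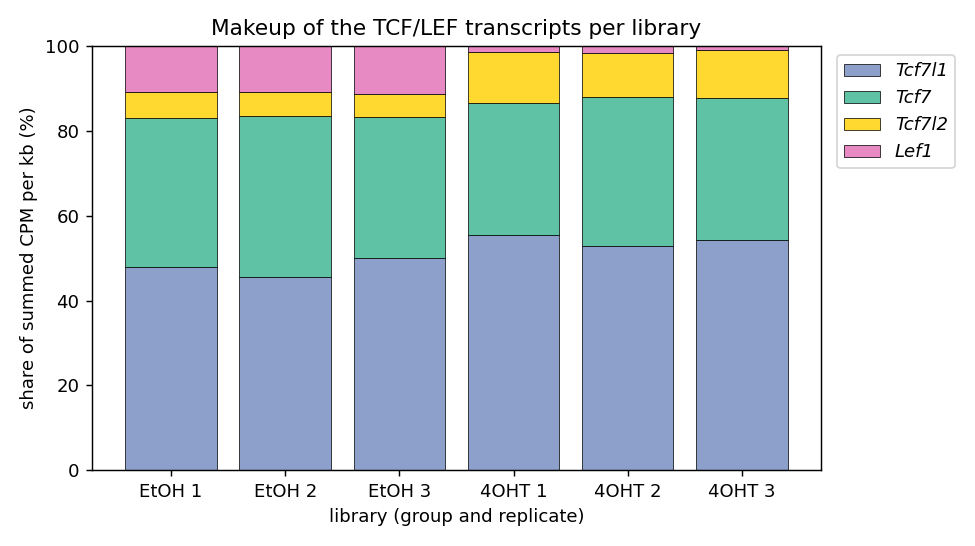
Share of each TCF/LEF gene in the summed CPM per kb of the 4 genes (y axis, percent) for each library (x axis). Lef1 (pink) takes between 10.8% and 11.4% in EtOH and between 1.07% and 1.60% in 4OHT, and Tcf7l2 (yellow) takes between 5.29% and 6.13% in EtOH and between 10.4% and 12.0% in 4OHT.

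The rest of the pathway was described from lists of its parts. Over all pathway lists, 99 of 114 genes were tested, 32 were higher, 26 lower and 41 not called, and the median log2 fold change was 0.04, against -0.00 over all tested genes (where 21.4% were higher and 20.6% lower). The lists were put together with earlier results of these data known and are not independent evidence of a direction.

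Cofactors bound by TCF/LEF factors or beta-catenin moved in both directions. Among the 21 that were tested, 7 rose and 6 fell, with a median log2 fold change of 0.02. The Groucho corepressor Tle3 was highest in fold, at 106, 116 and 113 CPM in EtOH and 209.9, 204 and 211 CPM in 4OHT (1.87-fold, log2 fold change 0.90, SE 0.05, edgeR adjusted p = 4.0e-44). Bcl9l, which links beta-catenin to Pygopus proteins, was 1.35-fold higher (27.0 ± 2.22 to 36.7 ± 2.74 CPM, edgeR adjusted p = 0.00021). The corepressor Ctbp1 fell 1.21-fold, from 99.0 ± 2.90 to 81.8 ± 1.55 CPM (edgeR adjusted p = 1.0e-04). These counts shift with the test: with DESeq2, 3 were higher and 2 lower, and without EtOH replicate 2, 4 were higher.

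The destruction complex and the Dishevelled proteins that act on it held mostly genes that did not pass the test. Of 16 tested genes, 4 were higher, 1 was lower and 11 were not called, with a median log2 fold change of 0.07. The scaffold genes Apc (log2 fold change 0.06, edgeR adjusted p = 0.33) and Axin1 (-0.09, 0.30), named after their values were seen, did not pass. Higher were the Dishevelled gene Dvl2 (from 94.6 ± 2.00 to 116 ± 1.44 CPM, 1.23-fold, with an edgeR adjusted p of 6.4e-06) and the kinase gene Csnk1e (1.17-fold, edgeR adjusted p = 0.0037, and 0.070 without 4OHT replicate 2). Dvl3 (0.28) and the kinase gene Gsk3b (0.19), named after their values were seen, were also called. The edgeR adjusted p of Dvl3 was 0.064 without 4OHT replicate 1, and that of Gsk3b was 0.094 without 4OHT replicate 3 and 0.31 without EtOH replicate 3. Amer1, a membrane anchor of the complex, was lower (34.2 ± 3.86 to 26.4 ± 2.77 CPM, 1.31-fold, edgeR adjusted p = 0.0015). Without EtOH replicate 2 the lower genes were 2 in number, and with DESeq2 only 2 were higher.

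Receptors of WNT ligands included larger changes. Of 17 tested genes for receptors and ligand secretion, 3 were higher and 3 lower, with a median log2 fold change of -0.03. The coreceptor Lrp5 rose 1.62-fold (109, 113 and 116 CPM in EtOH against 182, 186 and 179 CPM in 4OHT, edgeR adjusted p = 4.6e-30), while the value of its relative Lrp6, named after it was seen, was 0.06 on the log2 scale (edgeR adjusted p = 0.52). The Frizzled receptor gene Fzd3 fell 2.51-fold (30.7, 34.0 and 28.9 CPM in EtOH against 10.4, 12.4 and 14.0 CPM in 4OHT, edgeR adjusted p = 1.1e-18). Lgr4, a receptor for R-spondins, which strengthen WNT signals, fell 1.35-fold (edgeR adjusted p = 1.6e-08). Named after their values were seen, the WNT carrier Wls (0.64) and Fzd7 (0.18) were higher and Fzd2 (-0.35) was lower on the log2 scale. The call of Fzd2 was lost without 4OHT replicate 3 (edgeR adjusted p = 0.057) and without EtOH replicate 3 (0.11).

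Genes known to respond to WNT signals, Sp5 and Lef1 left aside, moved in both directions, with more lower than higher calls. Of 25 listed, 17 were tested, 8 were lower and 4 higher, and the median log2 fold change was -0.28. Among all tested genes, 20.6% were lower and 21.4% higher. The lower calls thus stood above that share and the higher calls near it, on a list put together with earlier results known. The cyclin gene Ccnd1 was lower (321, 281 and 301 CPM in EtOH against 169.8, 170.3 and 170.5 CPM in 4OHT, 1.77-fold, edgeR adjusted p = 4.0e-47). Id2, an inhibitor of differentiation factors, was 2.27-fold higher (edgeR adjusted p = 2.9e-49), and the ligand gene Bmp4 2.20-fold higher (edgeR adjusted p = 1.9e-28). The remaining genes of this list were named after their values were seen. Axin2, the feedback gene most used as a readout of the pathway, was read 65, 63 and 56 times in EtOH and 41, 53 and 71 times in 4OHT. Its level was 13.7 ± 0.576 CPM in EtOH and 9.82 ± 1.12 CPM in 4OHT (edgeR adjusted p = 0.021, log2 fold change -0.46, SE 0.17). That call was lost without 4OHT replicate 1 (0.078), 4OHT replicate 2 (0.055) or EtOH replicate 2 (0.066), and with DESeq2 (0.099). Notum, a secreted inhibitor of WNT ligands, was 1.70-fold lower (edgeR adjusted p = 7.2e-06). The ligand gene Wnt3 was 3.55-fold lower, from 20 to 29 counts in the EtOH libraries to between 7 and 10 in 4OHT. Tnfrsf19 (-0.84), Gbx2 (-0.61) and Myc (-0.28) were also lower on the log2 scale. So was T (-3.11), which is described below with the genes most like Lef1. Cdx1, a homeobox gene, was 3.32-fold higher and Rnf43, which removes Frizzled receptors, 2.48-fold higher, the latter with at most 28 counts in a library. Lower calls (Axin2, Notum) and higher calls (Rnf43) both included genes that act as feedback inhibitors of the pathway.

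Genes known to be repressed by Tcf7l1 in mESCs were all called. Of 10, 7 were higher and 3 lower, and the median log2 fold change was 0.40. Over all tested genes, 21.4% were higher and 20.6% lower. Esrrb, Tfcp2l1 and Nanog are also among the mESC markers given above, so the lists are not separate there. The largest rises were Tbx3 (66.5 ± 2.30 to 229 ± 9.15 CPM, 3.44-fold), Tcl1 (32.9 ± 3.90 to 74.2 ± 1.20 CPM, 2.27-fold) and Tfcp2l1 (667 ± 19.6 to 1505 ± 20.2 CPM, 2.26-fold). Esrrb was 1.56-fold, Klf2 1.46-fold, Nr0b1 1.18-fold and Nanog 1.10-fold higher. The 3 lower genes were the nuclear receptor gene Nr5a2 (75.9 ± 1.47 to 49.4 ± 2.79 CPM, 1.54-fold), the Nodal coreceptor gene Tdgf1 (1.28-fold) and the growth factor gene Fgf4 (1.18-fold). Tcf7l1 itself was 1.15-fold lower, a call that was lost without EtOH replicate 3. Whether its level bears on these genes was not tested.

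**Figure D4:**
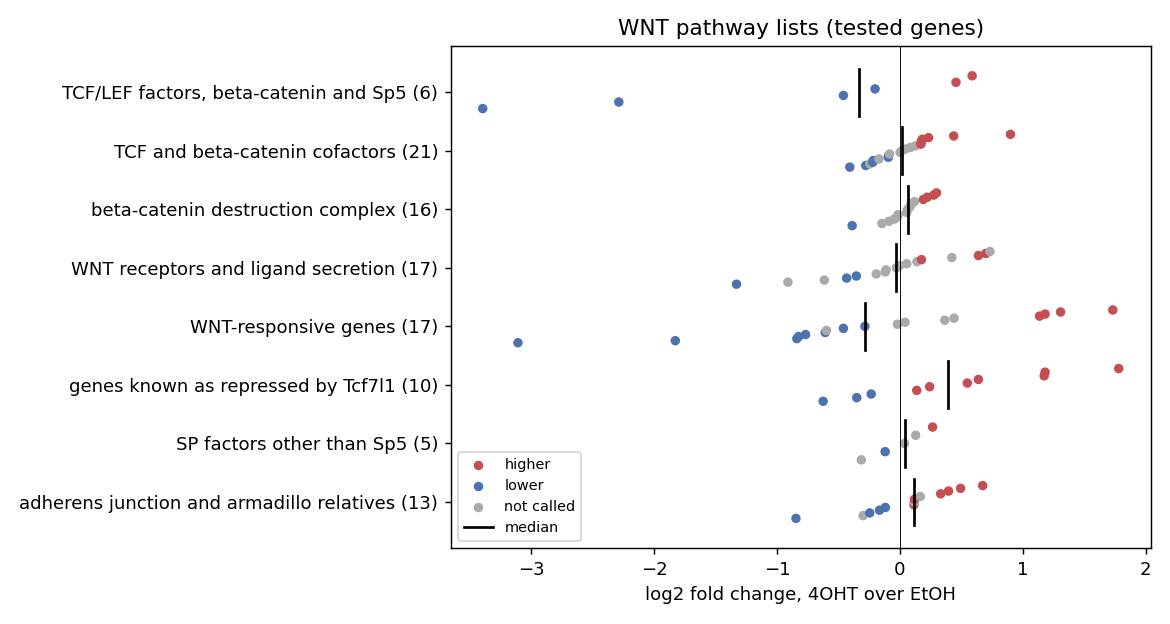
Log2 fold change, 4OHT over EtOH (x axis), of each tested gene of the member set and the 7 pathway lists (y axis, number tested in brackets), coloured by call, with the list median as a black bar. The WNT-responsive genes lie on both sides of 0, from -3.11 (T) to 1.73 (Cdx1) with a median of -0.28, while the destruction complex genes lie between -0.39 (Amer1) and 0.30 (Dvl2).

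Of the other SP factors, 5 of 8 were tested, of which 1 was higher, 1 lower and 3 not called. The shares over all tested genes were 21.4% higher and 20.6% lower. Sp1 stood at 329 ± 5.72 CPM in EtOH and 303 ± 1.86 CPM in 4OHT, a log2 fold change of -0.12 (edgeR adjusted p = 0.0096). Without EtOH replicate 3 its edgeR adjusted p was 0.052. Sp2 was 1.20-fold higher (edgeR adjusted p = 0.0016). Sp3 (log2 fold change 0.04, edgeR adjusted p = 0.56), Sp4 (-0.31, 0.13) and Sp6 (0.13, 0.52) did not pass. Sp7, Sp8 and Sp9 had too few counts to be tested.

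Beta-catenin also binds cadherins at adherens junctions, and genes of that complex and armadillo relatives were compared with Ctnnb1. Of 13 tested, 6 were higher and 4 lower, with a median log2 fold change of 0.12. The alpha-catenin gene Ctnna1, whose protein binds beta-catenin, rose 1.60-fold (641, 623 and 633 CPM in EtOH against 1039, 973 and 1014 CPM in 4OHT, edgeR adjusted p = 2.6e-53). Jup, which encodes plakoglobin, the closest relative of beta-catenin, rose 1.26-fold (229 ± 7.80 to 288 ± 9.59 CPM, edgeR adjusted p = 2.5e-12). The cadherin gene Cdh3 fell 1.80-fold (40.1 ± 1.03 to 22.2 ± 0.577 CPM, edgeR adjusted p = 1.2e-12). The main cadherin gene of mESCs, Cdh1, named after its values were seen, stood at 532 ± 10.2 CPM in EtOH and 490.0 ± 28.1 CPM in 4OHT, a log2 fold change of -0.12 (edgeR adjusted p = 0.0045). Without 4OHT replicate 2 its edgeR adjusted p was 0.089. The other lower genes, also named after their values were seen, were Pkp4 (-0.25) and Ctnnbl1 (-0.17). The call of Ctnnbl1 was lost without any of 4OHT replicates 1 (0.071) and 3 (0.083) and EtOH replicates 1 (0.17) and 2 (0.11).

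The tested genes that lie nearest to the members by RefSeq start are given as far as reported here. They moved less than Lef1 or Sp5 did, which holds for nearly every tested gene. A larger absolute log2 fold change than that of Lef1 was seen in 0.0243% of tested genes, and than that of Sp5 in 0.251%. Starts lay 383 kb (Rpl34) and 123 kb (Hadh) from that of Lef1, and 578 kb (Ubr3) and 187 kb (Gorasp2) from that of Sp5. Beside Lef1, Rpl34 had a log2 fold change of -0.19 (edgeR adjusted p = 0.019; 0.054 without 4OHT replicate 1, 0.097 without 4OHT replicate 3 and 0.13 without EtOH replicate 2) and Hadh of -0.08 (0.32). Beside Sp5, Ubr3 was higher (0.34, edgeR adjusted p = 1.5e-10) and Gorasp2 did not pass (0.01, 0.88). Skp1 beside Tcf7 was lower (-0.18, edgeR adjusted p = 2.5e-05) and Tgoln1 beside Tcf7l1 higher (0.38, edgeR adjusted p = 5.4e-08). Vdac1 beside Tcf7, Kcmf1 beside Tcf7l1, Vti1a beside Tcf7l2, and Rpl14 and Ulk4 beside Ctnnb1 had log2 fold changes between -0.06 (Rpl14) and 0.17 (Vti1a), none of which passed.

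The genes whose pattern was most like that of Lef1 or Sp5 were found by the Euclidean distance, over the 6 libraries, between log2 CPM centred on the EtOH mean, as a description with no test. For Lef1 these were Vrtn (distance 0.77; 13.9 ± 1.18 to 1.66 ± 0.342 CPM), Enpp2 (1.44; 18.6 ± 1.11 to 2.72 ± 1.06 CPM) and T (1.61; 4.66 ± 0.880 to 0.507 ± 0.460 CPM). T, the mesoderm gene also called brachyury and a member of the WNT-responsive list, was read 22, 25 and 16 times in EtOH and 0, 5 and 4 times in 4OHT, so its 4OHT level lay around the level of 3 counts. For Sp5 they were Jph4 (distance 0.23; 20.5 ± 0.693 to 4.50 ± 0.478 CPM), Spn (0.29; 6.24 ± 0.478 to 1.14 ± 0.0997 CPM) and Bcl11a (0.39; 7.69 ± 0.638 to 1.46 ± 0.628 CPM).

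Markers of other cell types moved between the groups too, and their part in the members' changes was not tested. The shares to set beside their counts are 21.4% higher and 20.6% lower over all tested genes. Of 12 trophectoderm markers, 8 were tested, 7 were higher and 0 lower, and the summed level was between 470 and 493 CPM in EtOH and between 1001 and 1034 CPM in 4OHT. The keratin genes Krt8 and Krt18 made up most of it. The lineage regulators Hand1 (1.53 to 8.93 CPM, 5.98-fold), Eomes (4.95 to 13.0 CPM, 2.62-fold) and Gata3 (3.47 to 7.90 CPM, 2.25-fold) and the keratin gene Krt7 (2.50-fold) were also higher. The defining gene Cdx2 had at most 14 counts and Elf5 at most 1 count in a library, and neither was tested. Of 12 primitive endoderm markers, 7 were tested, 2 were higher (Col4a1 and Sparc) and 0 lower, with sums between 381 and 397 CPM in EtOH and between 551 and 560 CPM in 4OHT. The defining gene Gata4 stood at 5.20 CPM in EtOH and 5.73 CPM in 4OHT, and Sox17 had at most 3 counts. Of 10 neural progenitor markers, 7 were tested, 0 were higher and 4 lower, with sums between 227 and 238 CPM in EtOH and between 135 and 140 CPM in 4OHT. Of 12 mesendoderm markers, 3 were tested, of which T and Wnt3 were lower and Eomes higher, and Cer1 and Lhx1 had no count. Their sum was between 17.6 and 21.7 CPM in EtOH and between 15.4 and 20.5 CPM in 4OHT. Neural crest and lymphoid genes, whose cells carry Lef1 or Tcf7, summed to between 40.1 and 43.6 CPM in EtOH and between 37.6 and 49.4 CPM in 4OHT. In that list 2 of 10 were tested, Ets1 (higher) and Foxd3, which mESCs also express, while Cd3d had no count and Ptprc at most 3 counts. Fibroblast markers (4 of 10 tested, 0 called, Lum with no count) summed to between 17.1 and 25.8 CPM in EtOH and between 21.6 and 27.7 CPM in 4OHT.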

How the data were processed

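The authors deposited a table of raw read counts by gene and library, which also lists gene lengths. Per the labels' protocols, TRIzol RNA was made into libraries with a stranded mRNA kit. The submitters' processing notes name fastp, STAR, featureCounts and mm10, without roles. No version, annotation or strand setting is given in the sources used here. The members and lists were chosen with earlier results of these data known.

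Genes were kept by filterByExpr (minimum count 10, total 15), scaled with TMM and tested with edgeR 4.0.16 (robust quasi-likelihood, R 4.3.3). Benjamini-Hochberg adjustment ran over all 12345 tested genes with a threshold of 0.05. CPM are counts over the TMM-scaled library total. Named were the members, the 3 genes of smallest p per pathway list, all tested genes of the Tcf7l1-repressed and SP lists, 3 Tfe3 targets (Rragc, Flcn, with 43.3 ± 2.74 to 65.8 ± 2.39 CPM, and Sqstm1), the nearest tested neighbours and the 3 genes most like each member with an absolute log2 fold change of at least 1. Others were chosen after their values were seen and are marked so, except the cell type markers named, which were all chosen that way, and 1 gene that falls under the rule is not reported here.

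Alternatives were DESeq2 1.42.0 or limma-voom (limma 3.58.1), other scaling and filters, a threshold of 0.01, a replicate block, leave-one-out fits, other lengths for the shares and, added after seeing the data, thinning to the smallest total. The test was checked on simulated counts with known changes in a small part of the genes and the same dispersion for every gene. In the data 42.0% of tested genes were called, so that check does not give the error rate of these calls. Every pair of replicates differed beyond counting noise. Coding sequences were aligned with mafft 7.526. Positions and upstream sequences are RefSeq's for GRCm38.p6, matched by Entrez Gene identifier (25275 genes) and, for the upstream windows, for 6 of 6 members. Tables and plots used Python 3.11.15, pandas 2.3.3 and matplotlib 3.10.9.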

Additional observations from a re-analysis of the deposited data

How the results depend on the processing

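The directions of the 6 members held in every alternative run, and the calls of Lef1, Sp5, Tcf7, Tcf7l2 and Ctnnb1 held in all of them. Tcf7l1 lost its call when thinned (log2 fold change -0.16) and without EtOH replicate 3 (-0.14), which left 3 members lower instead of 4. Leaving out 1 library at a time gave log2 fold changes between -0.24 and -0.14 for Tcf7l1. The count of 33 for Lef1 and 31 for Sp5 over the 4OHT libraries limits the precision of their folds. With the replicate number as a block, 4 members were lower and 2 higher and 2585 genes were higher and 2497 lower in all. Deviations of same-numbered libraries correlated at between -0.023 and -0.016. With 3 libraries per group this cannot tell whether same-numbered libraries share a culture or day.

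Some neighbours that did not pass changed sign. Vdac1 was -0.012 with upper quartile factors. Ulk4 was between -0.24 and 0.29 with 1 library left out. Gorasp2 was -0.035 thinned, -0.020 with upper quartile factors and between -0.016 and 0.043 with 1 library left out.

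List counts that moved by over 1.5 times were these. Cofactors higher were 7, against 3 with DESeq2 and 4 without EtOH replicate 2 or at a threshold of 0.01, and cofactors lower were 6, against 2 with DESeq2. Destruction complex genes higher were 4, against 2 with DESeq2 or at 0.01, and lower 1, against 2 without EtOH replicate 2. Receptor genes higher were 3, against 5 when thinned. SP genes lower were 1, against 0 without EtOH replicate 3.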
